A study of Mus musculus with 3 samples.

Results

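The regions described here are chromatin immunoprecipitation peaks that were called once and sit at the ends of protein-coding genes of the mouse. They were chosen from the deposited peak list by 3 properties that are therefore not findings: a peak name marking 1 call, an authors' score of 4 or more, and a peak centre within 1 kb of either end of a protein-coding RefSeq gene on chromosomes 1 to 19, X or Y. The rule kept 726 of the 17289 peaks of the list (4.20%), and 57.8% of the 1257 single-call nuclear peaks of that score. The 726 peaks lay at 809 coding genes, which is 3.71% of the 21779 genes considered. The comparison set is the 1032 peaks of 2 calls in the same window, of any score, which lay at 1207 genes (5.54%).

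The chromatin came from hearts of wild-type Black-Swiss mouse embryos at stage E12.5, in midgestation. The series holds 2 pulldowns with a rabbit antibody against HIF-1α and 1 input library without pulldown, all from crosslinked, sheared chromatin of that same tissue, strain and stage. No treatment, mutant or second stage was compared. The authors called peaks in each pulldown against the input and merged both sets into 1 list. The number of calls joined in a peak stands at the end of its name, and the pulldown behind each call is not marked. The list has no count of reads, so the depth behind a peak is unknown, and no p-value was computed for any comparison below. Shares are given with exact (Clopper-Pearson) 95% intervals, which cover counting error only.

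HIF-1α is the oxygen-regulated subunit of a heterodimer with ARNT. At normal oxygen, prolyl hydroxylases of the EGLN family mark it for VHL, the substrate receptor of a ubiquitin ligase that leads to its destruction. In low oxygen it accumulates, pairs with ARNT and binds a short core sequence in genes of glycolysis, mitochondrial autophagy and its own feedback control. The core is ACGTG or GCGTG, and the hypoxia response element of most textbook target genes holds the form starting with A. The midgestation heart is known to develop in low oxygen.

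Sequence could be read for peaks whose whole 101 bp window fell inside a RefSeq promoter window of 250 bases before to 50 bases after a gene start (build GRCm38.p6, the assembly of mm10). That held for 272 of the 726 peaks (37.5%) and for 445 of the 1032 peaks of 2 calls (43.1%). The sequences below are 101 bp windows at the peak centres, outside every annotated gene, on the strand of the gene. Capitals mark the HIF core on either strand, so CACGT and CACGC are the core on the opposite strand, and the E-box CACGTG holds the core on both. Only 76 members met these conditions for printing. The first 6 are the highest-scoring of these 76 with a core, shown because they span the forms in which it occurred. Proser1 has a score of 6 and the other 5 have a score of 5.
Proser1, chr3:53463627-53463727, plus strand: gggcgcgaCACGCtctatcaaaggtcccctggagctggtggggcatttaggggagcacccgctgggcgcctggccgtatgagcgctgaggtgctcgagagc
Dip2c, chr13:9276394-9276494, plus strand: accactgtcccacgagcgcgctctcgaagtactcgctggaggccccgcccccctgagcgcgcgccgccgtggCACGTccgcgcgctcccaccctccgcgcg
Dnajc16, chr4:141790763-141790863, minus strand: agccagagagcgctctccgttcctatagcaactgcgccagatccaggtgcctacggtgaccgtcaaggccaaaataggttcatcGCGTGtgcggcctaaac
Get1, chr16:96145155-96145255, plus strand: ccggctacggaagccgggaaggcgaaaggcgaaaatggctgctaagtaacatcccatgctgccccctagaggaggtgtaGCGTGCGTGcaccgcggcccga
Msi2, chr11:88718316-88718416, minus strand: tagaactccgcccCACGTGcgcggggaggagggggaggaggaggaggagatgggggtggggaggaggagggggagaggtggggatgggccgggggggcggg
Pold1, chr7:44548822-44548922, minus strand: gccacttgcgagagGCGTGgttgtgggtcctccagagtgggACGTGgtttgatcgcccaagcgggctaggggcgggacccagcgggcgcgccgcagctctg
Proser1, Dnajc16 and Get1 held only the form starting with G, and Get1 held it in 2 overlapping copies. Dip2c, Msi2 and Pold1 held the form starting with A. In Msi2, which encodes an RNA-binding translational regulator, it was part of an E-box. Pold1, the catalytic subunit of DNA polymerase delta, had 1 match of each form.

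The next 3 are the highest-scoring printable members with no core, with scores of 7, 6 and 6. They are shown because a window without a core was about as common among the members as a window with one.
Mtmr10, chr7:64287444-64287544, plus strand: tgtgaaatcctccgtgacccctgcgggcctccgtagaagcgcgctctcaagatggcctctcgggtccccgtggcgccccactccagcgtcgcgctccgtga
Exosc2, chr2:31670569-31670669, plus strand: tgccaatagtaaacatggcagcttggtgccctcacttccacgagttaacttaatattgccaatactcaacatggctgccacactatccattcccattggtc
Klhl9, chr4:88722514-88722614, minus strand: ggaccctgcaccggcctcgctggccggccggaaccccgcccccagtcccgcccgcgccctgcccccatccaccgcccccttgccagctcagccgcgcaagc
Mtmr10 encodes a myotubularin-related protein, Exosc2 a subunit of the RNA exosome and Klhl9 an adaptor of a ubiquitin ligase. The Exosc2 window held 1 CpG, while those of Mtmr10 and Klhl9 held 12 and 11. The last 4 windows are the central 101 bp of peaks of 2 calls, printed for contrast, with scores of 55, 44, 36 and 25.
Pgam1, chr19:41911722-41911822, plus strand: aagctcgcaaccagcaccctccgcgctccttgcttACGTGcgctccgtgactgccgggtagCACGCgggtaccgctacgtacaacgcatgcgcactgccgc
Sh3gl1, chr17:56036786-56036886, minus strand: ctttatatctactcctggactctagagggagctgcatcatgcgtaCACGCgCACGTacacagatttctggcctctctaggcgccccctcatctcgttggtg
Bnip3, chr7:138909576-138909676, minus strand: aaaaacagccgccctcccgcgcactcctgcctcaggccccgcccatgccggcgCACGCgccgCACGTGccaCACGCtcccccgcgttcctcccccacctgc
Pgk1, chrX:106186899-106186999, plus strand: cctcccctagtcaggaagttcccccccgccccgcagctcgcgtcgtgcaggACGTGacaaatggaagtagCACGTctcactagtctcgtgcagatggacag
Each of these 4 held the core at least at 2 places, counting both strands, and each held the form starting with A. Pgam1 and Pgk1 encode glycolytic enzymes, Bnip3 a mitochondrial autophagy receptor and Sh3gl1 an endocytic adaptor.

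Across all readable windows the core was less frequent in the single-call peaks than in the peaks of 2 calls. A core of either form was present in 48.5% of the 272 member windows (interval 42.5 to 54.6) and in 61.1% of the 445 windows of 2-call peaks (56.4 to 65.7). Single-call peaks of score 2 or 3 at coding ends held it in 37.1% of 426 windows. Among all 101 bp windows of coding promoters, taken every 10 bp, 22.6% held it. The members thus stood between the low-score single calls and the 2-call peaks. They also stood above the promoter background, which was not matched for CpG content.

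The contrast was wider for ACGTG than for the 2 forms together. ACGTG was present in 22.4% of the member windows (17.6 to 27.9), in 41.3% of those of 2-call peaks (36.7 to 46.1), in 14.6% of the low-score single calls and in 7.63% of all promoter windows. The intervals of the members and the 2-call peaks did not overlap. GCGTG, the other form of the core, was present in 33.8% of member windows (28.2 to 39.8) and 37.3% of 2-call windows (32.8 to 42.0), against 16.7% of all promoter windows. The 2 kinds of peak stood closer together for GCGTG than for ACGTG, with overlapping intervals. Of the single-letter relatives that are not HIF cores, CCGTG was present in 15.8% of member windows and 22.2% of 2-call windows, against 11.5% of all promoter windows. TCGTG was present in 10.7% and 9.89%, against 6.27%.

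The peaks of 2 calls reach higher scores than the members, so the sequence shares were also read at equal scores. At scores of 4 and 5, ACGTG was present in 22.7% of 251 member windows (17.7 to 28.4) and in 37.4% of 203 windows of 2-call peaks (30.8 to 44.5). A core of either form was present in 48.2% (41.9 to 54.6) and 58.6% (51.5 to 65.5), with overlapping intervals. Within the members the ACGTG share was 23.0% at score 4, 21.8% at score 5 and 4 of 21 windows at 6 or more. Within the 2-call peaks it was 28.4% at scores of 2 and 3, 37.4% at 4 and 5, 52.2% at 6 to 9 and 69.8% at 10 or more. Single-call peaks just below the threshold held it in 5.48% of 73 windows at score 2 and 16.4% of 353 at score 3. The share was thus higher at higher scores among peaks of 2 calls, and among single calls from score 2 to 4. Above score 4 the single calls were few, and the interval for 4 of 21 windows runs from 5.45% to 41.9%.

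**Figure D1:**
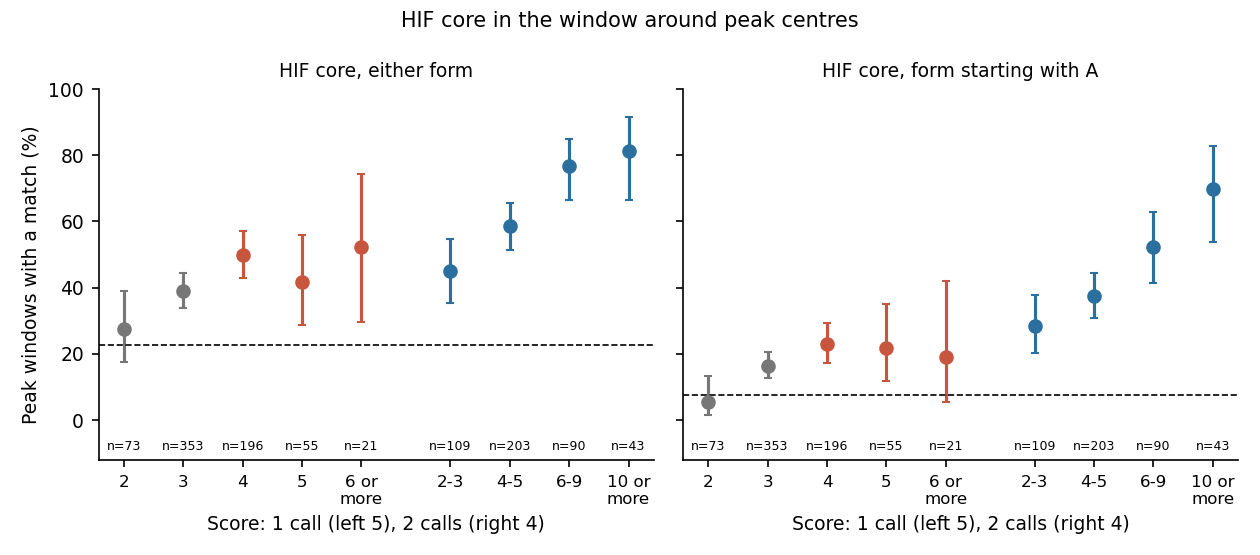
Share of 101 bp peak windows with a HIF core match (vertical axis, percent) by the authors' score (horizontal axis) for single-call peaks of score 2 or 3 (grey), single-call peaks of score 4 or more (red) and peaks of 2 calls (blue), with exact 95% intervals; the dashed line is the share of all promoter windows. In the panel for the form starting with A, the 3 red points lie at or below 23.0%, while the blue points run from 28.4% to 69.8%.

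The HIF core contains a CpG, and the members lie in CpG-rich DNA, so the shares were also taken at equal CpG content. The median number of CpG dinucleotides per window was 10 in the members and 10 in the 2-call peaks. In windows with 13 or more CpG, ACGTG was present in 32.1% of 78 member windows, 55.7% of 122 windows of 2-call peaks and 12.1% of promoter windows. With 9 to 12 CpG the shares were 14.0% of 93 and 36.9% of 160, with 6105 of 48692 promoter windows. With 5 to 8 CpG they were 24.4% of 82, 36.4% of 129 and 10.9%. In all 3 of these classes the member share was the lower of the 2 peak shares, and at 9 to 12 CpG it lay close to the promoter background. For a core of either form, the member share was 41.5% (30.7 to 52.9) with 5 to 8 CpG, against 33.0% of promoter windows. With 9 to 12 CpG it was 48.4% (37.9 to 59.0) against 42.2%, and with 13 or more it was 64.1% (52.4 to 74.7) against 45.2%. Only in the last of these classes did the interval lie above the promoter share.

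The share of core matches near the peak centre had overlapping intervals in both kinds of peak. Of 216 core matches in the members, 58.8% lay within 25 bp of the peak centre (51.9 to 65.4). The share was 62.3% of 517 matches in the 2-call peaks (57.9 to 66.5) and 54.5% of 244 in the low-score single calls. Of all possible positions 52.6% lie there, inside the member interval and below that of the 2-call peaks. For ACGTG alone the share was 68.2% of 85 matches in the members (57.2 to 77.9). In the 2-call peaks it was 70.2% of 262 (64.3 to 75.7), and both intervals lay above 52.6%. The members therefore held fewer ACGTG matches per window, with a similar share near the centre.

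**Figure D2:**
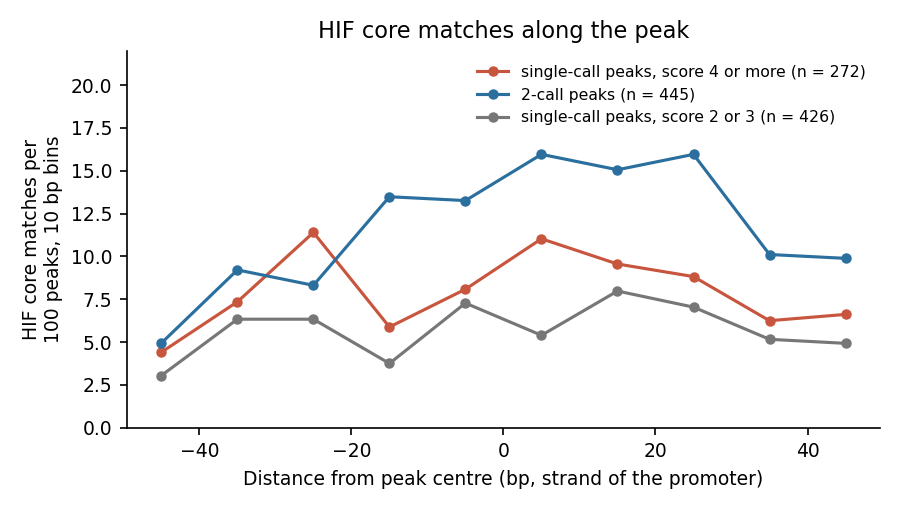
HIF core matches of either form per 100 peaks (vertical axis) in 10 bp bins along the 101 bp window (horizontal axis, distance from the peak centre in bp, on the strand of the promoter), for single-call peaks of score 4 or more, peaks of 2 calls and single-call peaks of score 2 or 3. The blue line of the 2-call peaks lies above the red line of the members in all bins but the one centred 25 bp before the peak centre.

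Other short promoter motifs were read in the same windows, on both strands. The set of all promoter windows was not matched for CpG or GC content. How far base composition accounts for these contrasts was not tested. The ETS motif CCGGAAG was present in 12.1% of member windows and 14.4% of 2-call windows, against 4.08% of all promoter windows. The SP1 motif GGGCGG was present in 38.2% and 43.8%, against 24.3%. TGACGT, part of the cyclic AMP response element bound by CREB and ATF factors, was present in 8.82% of member windows (5.74 to 12.8) and 4.72% of 2-call windows (2.94 to 7.12), against 3.26%. The CCAAT box of NF-Y was present in 7.35% and 9.44%, against 18.2% of all promoter windows. TATAAA was present in 0.735% (2 of 272) and 1.35%, against 4.86%. The GATA motif GATAAG, in 2.21%, and the NKX2-5 motif CAAGTG, in 3.31% of member windows, lay near their promoter shares of 2.42% and 4.46%. The TEAD motif GGAATG was present in 4.78% and 2.47%, against 4.77%.

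The printed windows of Get1, Mtmr10 and Exosc2 hold the letters AANATGGC, a long form of the YY1 site, which was therefore counted after the sequences had been seen. It was present in 8.46% of the member windows (5.44 to 12.4), 11.9% of the 2-call windows (9.05 to 15.3), 4.69% of the low-score single calls and 1.69% of all promoter windows. YY1 is a zinc finger protein that binds many promoters of widely expressed genes close to the start. These are matches of letters only, the promoter windows were again not matched for base composition, and no factor other than HIF-1α was assayed.

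Over the whole 300 bp promoter, 634 genes with members but no 2-call peak were compared with 922 genes with 2-call peaks but no member. A HIF core was present in 69.6% and 73.3% of these promoters, against 49.2% of all 17492 coding promoters with a sequence. ACGTG was present in 30.3% (26.7 to 34.0) and 42.2% (39.0 to 45.5), against 20.7%. The genes were grouped by their peaks, and these promoters contain the peak windows counted above. The promoter difference in the form starting with A is therefore not independent of the one in the windows. The median ratio of observed to expected CpG was 0.843 (95% interval of the median 0.818 to 0.859) in the members' promoters and 0.821 (0.807 to 0.842) in those of 2-call genes, against 0.577 in all promoters and 0.483 in genes with no peak in the window. Both kinds of peak therefore lay at CpG-rich promoters to about the same degree. Median gene length was 23272 bp for member genes, 19804 bp for 2-call genes and 17217 bp for all coding genes.

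Most members had a score at the bottom of the range that the rule allowed. Of the 726 peaks, 512 (70.5%) had a score of 4, 153 had 5, 38 had 6, 14 had 7, 7 had 8, and 1 each had 18 and 19. Of the 1032 peaks of 2 calls, 242 had a score of 2 or 3, 477 had 4 or 5, and 313 had 6 or more, of which 110 had 10 or more. No single-call member had a score between 9 and 17. Just below the threshold lay 1110 single-call peaks of score 3 at coding ends, which is 24.8% of the 4472 nuclear single calls of that score.

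**Figure D3:**
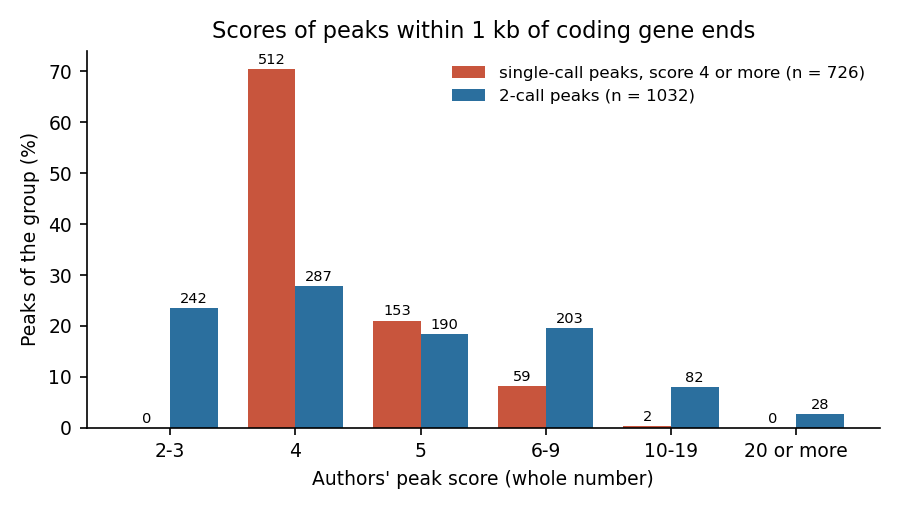
Share of peaks (vertical axis, percent, with the number of peaks above each bar) by the authors' score (horizontal axis) for the 726 single-call peaks of score 4 or more and the 1032 peaks of 2 calls, both within 1 kb of a coding gene end. Of the single-call peaks, 512 sit at score 4 and 2 reach 10 or more, while 110 of the 2-call peaks do; the cut at 4 is part of the rule.

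The single calls of highest score stood at a cardiac transcription factor gene and at a pair of heat shock genes. The peak of score 19 lay at Nkx2-5, which encodes a homeodomain factor of heart progenitors and cardiomyocytes (chr17:26844566-26844666 in mm10). Its centre was 372 bp inside the outer end of the RefSeq gene and 3051 bp upstream of the start used in the promoter table, so it did not sit at that start. The nearest other peak of the list was 31115 bp away. The peak of score 18 lay between Hspa1l and Hspa1a, which encode HSP70 chaperones and are transcribed in opposite directions (chr17:34972424-34972524). Its centre was 229 bp upstream of the start of Hspa1l and 318 bp upstream of that of Hspa1a.

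Score 8 was the next level and was reached by 7 peaks. The peak at Mrpl44, a mitochondrial ribosomal protein, was centred 33 bp inside the gene. The peaks at Nup153, a nuclear pore protein, and at Ube2d3, a ubiquitin-conjugating enzyme, held a core but not ACGTG. The peak at Ccdc88a held neither. Pcbp1, an RNA-binding protein, had its peak 983 bp upstream of the start, with another single-call peak of score 6 at 149 bp. A further peak of score 8, at Slc16a3, held ACGTG and was centred 10 bp upstream of an annotated start. Slc16a3 encodes the lactate exporter MCT4, and the nearest other peak, 1940 bp away, had 2 calls and scored 55. Among the peaks of score 7 were those at Palb2, a DNA repair protein, and at Zfp143, a promoter-binding zinc finger factor.

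Members lay at the starts of genes rather than at their 3′ ends. Where the promoter table gave a strand, the nearest coding end was the start for 580 of 603 members (96.2%, 94.3 to 97.6), for 820 of 846 peaks of 2 calls (96.9%) and for 86.5% of the low-score single calls. The members resembled the 2-call peaks in this and in the share upstream of the start, 65.4% against 67.4%. They were spread somewhat more widely. Of members within 1 kb of an annotated start, 45.8% had their centre within 100 bp of it (41.6 to 50.0), against 53.5% of 2-call peaks (49.9 to 57.0), and 27.4% against 21.6% lay over 250 bp away. The median position was 50 bp upstream for the members, with quartiles from 176 bp upstream to 41.8 bp downstream, and 44 bp upstream for the 2-call peaks. At the edge of the window, the farthest members lay 983 bp (Pcbp1), 997 bp (Spry1) and 1000 bp (Nab2) from a gene end. The nearest peaks left out lay at 1004 bp (Zfp990), 1005 bp (Noc3l) and 1032 bp (Sav1).

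**Figure D4:**
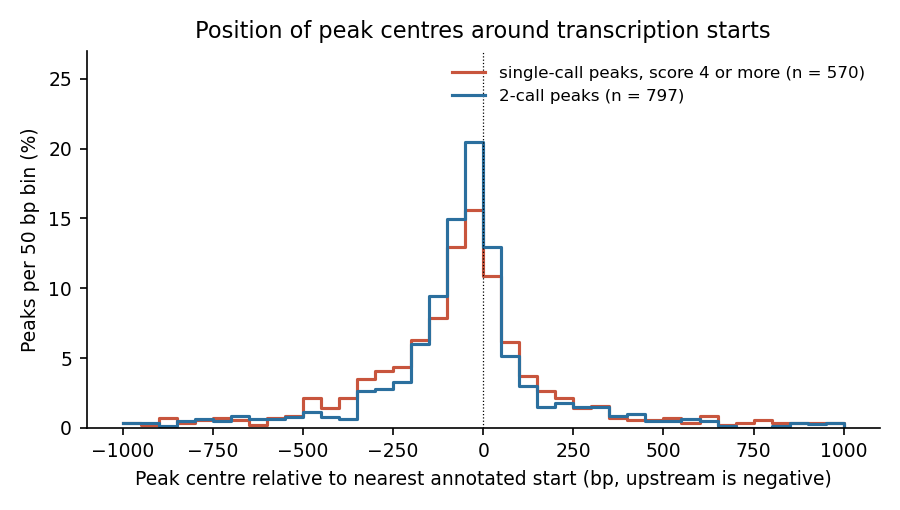
Share of peaks per 50 bp bin (vertical axis, percent) by the position of the peak centre relative to the nearest annotated start (horizontal axis, bp, upstream negative), for the 570 single-call members and the 797 peaks of 2 calls within 1 kb of a start. Both lines are highest in the bin just upstream of the start, and the red line of the members is lower there, with medians of 50 and 44 bp upstream.

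Bidirectional promoters held a similar share of both kinds of peak. A member lay between the starts of 2 coding genes on opposite strands in 74 cases (10.2%, 8.09 to 12.6), against 95 of the 2-call peaks (9.21%, 7.51 to 11.1). On chromosome X there were 3 members at 2 of 963 coding genes (0.208%, 0.0252 to 0.748), while 15 genes of X (1.56%, 0.874 to 2.56) had a peak of 2 calls. Over all coding genes the shares were 3.71% and 5.54%, so both kinds of peak were scarcer on X. Of the 3 members on X, 2 were adjacent peaks at Kdm5c, a histone H3 lysine demethylase. On Y, 0 of the 726 members were found, which allows a share of up to 0.507%.

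Members often had another peak close by. Another peak of the list lay within 1 kb of 128 members (17.6%, 14.9 to 20.6), against 98 of the 2-call peaks (9.50%, 7.78 to 11.5), 12.9% of low-score single calls at coding ends and 4.34% of peaks away from coding ends. For 99 of the 128 the nearest neighbour was another single-call peak, and for 29 it was a peak of 2 calls. Within 200 bp the counts were 37 of 726 members and 0 of 1032 peaks of 2 calls. A peak of 2 calls already joins calls that lay close together, so these counts depend on how the list was merged.

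There were 41 member genes with 2 member peaks each. In 16 of them the peak centres were at most 200 bp apart. Neighbouring genes that shared a pair of peaks, such as Mrpl47 and Ndufb5, were each counted. At Vdac1, a channel of the outer mitochondrial membrane, peaks of score 6 and 4 were 110 bp apart and flanked the start. At Vangl2, a planar cell polarity protein, peaks of score 5 and 4 were 106 bp apart. At Cul5, a ubiquitin ligase scaffold, both had a score of 4 and were 129 bp apart. At Ep300, a histone acetyltransferase and a coactivator of HIF-1α, peaks of score 6 and 4 were 918 bp apart. Whether the peaks of such a pair came from different pulldowns cannot be read from the list.

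Both kinds of peak were present at 35 genes, which is 4.33% of the 809 member genes (3.03 to 5.97) and 2.90% of the 1207 genes with a 2-call peak. The share of all coding genes with a peak of 2 calls, 5.54%, lies inside the interval of the member genes, so the overlap was near the background. The closest pair was at Ptbp1, a splicing repressor, with peaks of score 5 each 216 bp apart. At Msi2 a member of score 5 lay 627 bp from a 2-call peak of score 6. At Hsp90ab1, a cytosolic chaperone, a member of score 4 lay 584 bp from a 2-call peak of score 5. At Ppp1r15a, a regulatory subunit of the phosphatase that acts on eIF2α, the 2 peaks were 4414 bp apart, at opposite ends of the gene.

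The counts of members and 2-call genes stood farthest apart for genes of the known hypoxia response, of the lists examined. In every list, members needed a score of 4 or more, while peaks of 2 calls were counted at any score. Of 25 genes of the hypoxia response and of HIF feedback, 0 had a member (0 to 13.7%) and 16 had a peak of 2 calls (64.0%, 42.5 to 82.0). Over all coding genes the shares were 3.71% and 5.54%, so the member count was near the background and the 2-call count far above it. Of 22 genes of glycolysis and glucose uptake, 1 had a member (4.55%, also near the background), the Slc16a3 gene described above, and 11 had a peak of 2 calls (50.0%). The highest-scoring peaks of 2 calls were at Narf (score 157), Eno1 (109), Ankrd37 (100), Lars2 (85) and Pdk1 (59). Of 14 genes of the HIF subunits and oxygen sensors, 2 had a member and 3 had a peak of 2 calls. These members were at Vhl, with a score of 5 and a centre 7 bp inside the gene, and at Egln2, with a score of 4 and a centre 85 bp inside it. A further single call of score 3 lay at Vhl, 139 bp inside the gene. Epas1, which encodes HIF-2α, had a single call of score 3 and so fell below the threshold, while the peak at Arnt had 2 calls and scored 4. No peak of the list lay within 1 kb of either end of Hif1a. The monocarboxylate transporter gene Slc16a1 had a member of score 4.

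Among lists of the machinery of gene expression, splicing factors, and translation factors taken with their modifiers, held members at shares whose intervals lay above 3.71%. Aminoacyl tRNA synthetases held 0 of 35. Of the synthetases 6 had a peak of 2 calls. A score minimum of 3 gave 9 of 35 with a single call, against 9.16% of all coding genes, so their 0 depends on the score minimum. Of 82 splicing factor genes, 12 had a member (14.6%, 7.80 to 24.2) and 9 a peak of 2 calls (11.0%). They included Srsf2 and Hnrnpr with scores of 6, centred 5 and 20 bp from a gene end, Hnrnpa3 with 6, and Srsf7 with 5. Of 71 genes of translation initiation and elongation factors and their modifiers, 11 had a member (15.5%, 8.00 to 26.0) and 7 a peak of 2 calls (9.86%). Of these 11, Eef1akmt4 and Eef1akmt4-ece2 had the same score of 4 at the same distance of 829 bp. Eif4a2, an RNA helicase of initiation, had a score of 5 at 52 bp, and Eef2k, the kinase of elongation factor 2, a score of 5 at 222 bp. The related Eif4a1 and Eif3c had scores of 4. Of 115 genes of ubiquitin-conjugating enzymes and F-box proteins, 12 had a member (10.4%, 5.51 to 17.5) and 8 a peak of 2 calls. They were led by Ube2d3 with 8, Ube2v1 with 6 and Fbxo36 with 6. Of 43 genes of Mediator and RNA polymerase II, 4 had a member (9.30%, 2.59 to 22.1, which spans the background), all in Mediator: Med23 with 6, Med6 with 5, and Med16 and Med21 with 4. The zinc finger Zfp genes were closer to the background, with 19 of 397 (4.79%, 2.91 to 7.37), led by Zfp143 and Zfp532 with scores of 7.

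Among mitochondrial lists the 2 counts differed more for ribosomal proteins than for the respiratory chain, with overlapping intervals in both lists. Over all coding genes the shares were 3.71% and 5.54%. Of 78 mitochondrial ribosomal protein genes, 9 had a member (11.5%, 5.41 to 20.8) and 20 a peak of 2 calls (25.6%, 16.4 to 36.8). A score minimum of 3 gave 17 of the 78 with a single call, against 9.16% of all coding genes at that minimum. The contrast of the 2 counts thus depended on the score minimum. The 2-call peaks at Mrps33, Mrpl53, Mrps15, Mrps17, Mrps26, Mrpl16 and Mrpl11 had a score of 3, below the minimum for members. The members included Mrpl44 with a score of 8, Mrpl23 with 7, Mrps28 with 6 and Mrpl47 with 5. Of 98 genes of the respiratory chain and ATP synthase, 7 had a member (7.14%) and 8 a peak of 2 calls (8.16%). A score minimum of 3 gave 17 of the 98 with a single call, against the same 9.16%. Ndufs3 and Ndufb5, subunits of complex I, had scores of 5, and Cycs, which encodes cytochrome c, had 4. The peaks at Ndufb5 were the same as those at Mrpl47, so they count in both lists. Of 84 cytosolic ribosomal protein genes, 8 had a member, with Rpl9 at a score of 5 and the other 7, among them Rpl35a at 2 bp, at a score of 4. For proteasome subunits the counts were 1 (Psmd7, score 5) and 7 of 51, and for cell cycle and replication genes 0 and 6 of 33. The 2-call peaks at Psmd6, Psmg4, Cdt1 and Bub1b had a score of 3.

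The integrated stress response and unfolded protein response held 5 members among 32 genes (15.6%, 5.28 to 32.8) and 4 genes with peaks of 2 calls. The shares over all coding genes were 3.71% and 5.54%. All 5 had a score of 4, and a score minimum of 5 gave 0 genes. A window of 500 bp gave 2 genes. A window of 2 kb or 5 kb, or a score minimum of 3, gave 6. Over all coding genes the share was 9.16% at a minimum of 3 and 1.12% at a minimum of 5. The member count of this list therefore depends on the score minimum and the window. Atf4, the transcription factor translated when eIF2α is phosphorylated, had its peak centre 156 bp inside the gene. Eif2ak3, the eIF2α kinase PERK, had its peak at 378 bp. Atf6, a stress sensor of the endoplasmic reticulum, Ppp1r15a, and Herpud1, a protein of endoplasmic reticulum degradation, had theirs at 754, 865 and 915 bp.

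The mTORC1, autophagy and Vps gene lists had member shares above 3.71%, on few genes each and with intervals that span it. Their shares of genes with a peak of 2 calls were higher still, against 5.54% of all coding genes. Among 26 genes of mTORC1 and AMPK there were 3 members (11.5%, 2.45 to 30.2): Rptor and Tsc1 with scores of 6, and Mlst8 with 4. A peak of 2 calls was present at 5 of the 26 (19.2%). Among 31 autophagy genes there were 4 members (12.9%, 3.63 to 29.8): Wipi1 with 5, and Atg4d, Ulk2 and Nbr1 with 4. Peaks of 2 calls were present at 5 of the 31 (16.1%). Among 35 genes listed by a Vps symbol there were 4 members (11.4%, 3.20 to 26.7), all with a score of 4, and 8 had a peak of 2 calls (22.9%). The Rab GTPases (2 of 69), Slc25 carriers (2 of 47), DNA repair (1 of 30, Palb2) and p53 pathway (1 of 24, Cdkn2d) had shares within about a percentage point of the background. A score minimum of 3 gave 11 of 69, 3 of 47, 9 of 30 and 2 of 24, against 9.16% of all coding genes. The closeness of DNA repair to the background therefore depends on the score minimum. Of 44 genes of histone lysine methyltransferases and demethylases, 3 had a member and 9 a peak of 2 calls. The members were Kdm5c with 5, and Kdm1a and Ezh2, the catalytic subunit of Polycomb complex 2, with 4.

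The lists of heart genes held 3 members and 1 member, and no gene with a peak of 2 calls. Of 28 cardiac transcription factor genes, 3 had a member (10.7%, 2.27 to 28.2) and 0 a peak of 2 calls (0 to 12.3%). They were Nkx2-5, Tbx3, a T-box factor of the conduction system, with a score of 4 at 131 bp, and Gata4, with a score of 4 at 142 bp. Of 30 genes of the sarcomere and calcium handling, 1 had a member, Ttn, with a score of 4 and a centre 546 bp inside the gene, and 0 had a peak of 2 calls. With 3 genes and 1 gene, the member intervals span the background of 3.71%. The counts of 0 for peaks of 2 calls allow shares of up to 12.3% and 11.6%, which include the 5.54% of all coding genes. No member was found at 30 markers of endothelium, epicardium, cushion and blood, 27 angiogenic and growth factor genes, 20 neuronal genes, 20 liver genes or 1109 olfactory receptor genes. These zeros allow shares of up to 11.6%, 12.8%, 16.8%, 16.8% and 0.332%. A peak does not show which cells of the heart it came from.

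A further 4 lists were drawn up after the members had been seen and only describe them. For scale, the shares over all coding genes were 3.71% and 5.54%. Of 25 immediate early and rapid response genes, 6 had a member (24.0%). They were Dusp1 and Myc with scores of 5, and Jund, Klf4, Jun and Nfkbia with 4. Of these 25, Ier3 alone had a peak of 2 calls. Of 40 heat shock and HSP40 genes, 8 had a member and 7 a peak of 2 calls. Besides the HSP70 pair, which share 1 peak, these members included Dnajb1 with a score of 5 and the constitutive HSP70 gene Hspa8 with 4. Core histone genes held 6 members of 73, against 1 gene with a peak of 2 calls. Among 61 genes of general transcription and elongation factors there were 13 members and 11 with peaks of 2 calls. Hexim1, which holds the elongation kinase P-TEFb inactive, had a score of 7, and Nelfb, a subunit of the pausing factor NELF, had 6, centred 2 bp from the gene end.

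**Figure D5:**
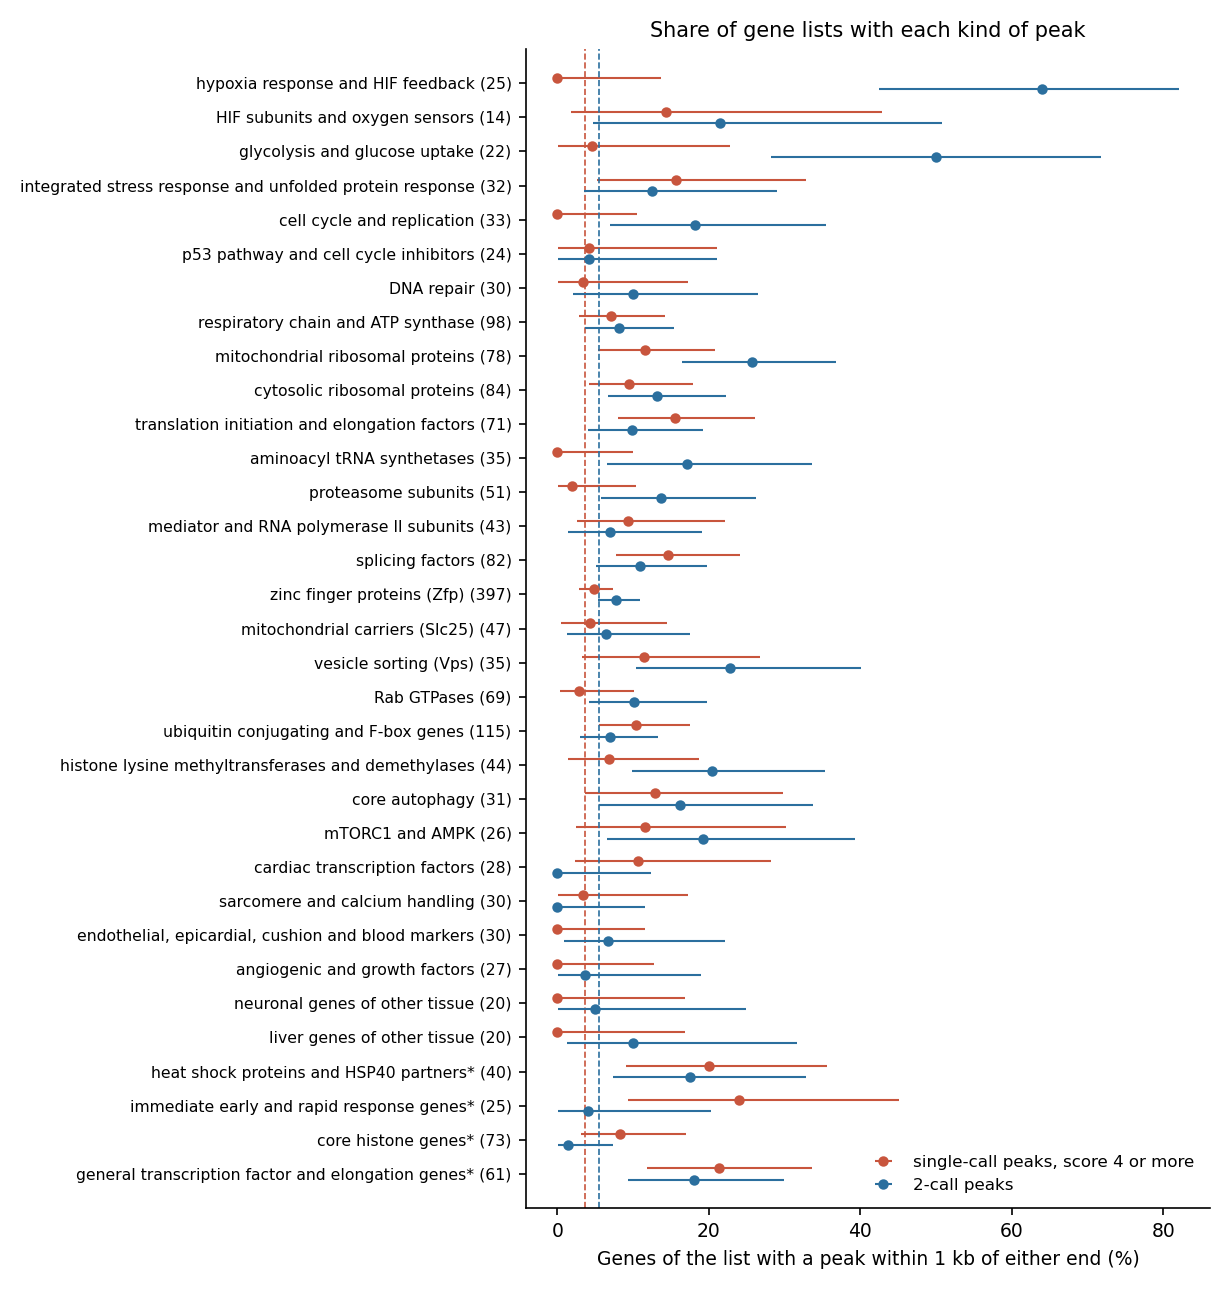
Share of the genes of each list (horizontal axis, percent, with exact 95% intervals; number of genes in brackets) that had a single-call peak of score 4 or more (red) or a peak of 2 calls (blue) within 1 kb of either end; dashed lines give the shares among all coding genes, 3.71% and 5.54%, and an asterisk marks a list drawn up after the members had been seen. Peaks of 2 calls are counted at any score. The 2 kinds of peak stand farthest apart for the hypoxia response (0 and 64.0%) and glycolysis lists. Olfactory receptors, with 0 of either kind, are not drawn.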

How the data were processed

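The series holds 3 libraries of embryonic heart chromatin: 2 HIF-1α pulldowns and 1 input. Alignment with Bowtie2 to mm10 and the use of HOMER are stated in the submitters' processing notes. For the calling threshold and the merging rule, no statement was found in the labels or header used here. The deposited score is a whole number per peak and is the authors' value; its unit is not stated, and it was used only to choose and describe peaks. Both pulldowns stand in 1 merged list made against the input, per the file headers, so no replicate enters a test.

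Peak centres were set against the outer ends of 21779 protein-coding RefSeq genes (GRCm38.p6). Strand and sequence came from the RefSeq promoter table, which held 17492 of these genes; exon, intron and UTR annotation was not used here. Windows of 101 bp were searched on both strands for fixed short motifs. Work was done in Python 3.11.15 with pandas 2.3.3 and scipy 1.17.1, and the scripts were tested on simulated data.

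The members and gene lists were chosen with earlier results of these data known. Genes named are, except for items not reported here, those of the 12 highest-scoring members, up to 4 of highest score per list, the peaks nearest the 1 kb edge, genes fixed by name (Nkx2-5, Vhl, Atf4, Gata4, Epas1, Arnt and Hif1a) and the 5 highest-scoring peaks of 2 calls at coding ends. Printed sequences are the highest-scoring, with and without the core, of the 76 members whose window lay in a promoter window and outside every annotated gene. Vdac1, Vangl2, Cul5, Ep300, Ptbp1, Msi2, Hsp90ab1, Slc16a1 and other genes outside these rules were chosen after their values were seen. Other score minimums, windows, gene assignments and motif forms were tried as alternatives.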

Additional observations from a re-analysis of the deposited data

How the results depend on the processing

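No paired analysis was possible because the calls of both pulldowns stand in 1 merged list and a single call does not carry its pulldown; leaving out a replicate was not possible for the same reason. A score minimum of 3 gave 1836 peaks at 1995 genes, a start share of 93.8% and a median CpG ratio of 0.811. A minimum of 5 gave 214 peaks at 245 genes, of which 8.16% also had a peak of 2 calls, and 26.6% of the peaks had a neighbour within 1 kb. With a window of 500 bp, 98.0% of peaks lay at starts and 2.22% of genes had both kinds of peak; with 2 kb, 6.84% of genes had both. The A form alone gave 30.3% in promoters and 22.4% in peak windows, and a 51 bp window gave 29.8% for either form. These 3 moves follow from a narrower motif or window. The alternatives for the peak windows were chosen after seeing the data. Of 150 list counts under other settings, 59 moved by over 1.5 times; the hypoxia list held 0 members at every window from 500 bp to 5 kb and 1 at a minimum of 3.

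The main limits are the missing read counts, the unknown source of each single call, and sequence for 272 of 726 peaks, all at annotated starts.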
